A study of Rattus norvegicus with 2 samples.

Results

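The unplaced and randomly placed sequence of the rat genome was followed with the array probes whose chromosome in the deposited files is Un, Un_random or the random set of an autosome. Un holds sequence with no known chromosome, and a random set holds sequence that is assigned to a chromosome but to no position on it. Probes on chromosomes 1 to 20 and X, called placed here, and the 95 probes of X_random were not members. The rule found 4530 probes among the 235872 kept, with 2274 on Un, 195 on Un_random and 2061 on the 20 random sets of the autosomes. No member carried an outlier flag, none was saturated and none was spotted more than once.

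The study asked where the oxidised base 8-oxoguanine (8-oxoG) lies in kidney DNA of the rat. Its only group is normal kidney, from untreated male rats of the strain that the labels spell Wister, aged 5 weeks, with 1 array for each of 2 rats. DNA precipitated (IP) with the monoclonal antibody N45.1 against 8-oxoG was labelled with Cy5, and input DNA without antibody with Cy3, at 800 ng of DNA per labelling. No other group exists and the channels were never exchanged, which means that an effect of the dye and an effect of the antibody cannot be told apart.

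8-oxoG is formed when reactive oxygen attacks guanine, and it can pair with adenine during replication if the repair enzymes do not remove it. Sequence that an assembly leaves without a place is often repetitive, because copies that are nearly alike are hard to order. A probe for such sequence can hybridise with DNA from many places in the genome, and its signal is then a sum over them.

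The level of a probe is log2 of processed IP over processed input intensity, minus the median of the array, so that 0 is the middle of all probes and 1 is a doubling. Levels are given for replicate 1 and then replicate 2, and errors are the SD over the 2 arrays. Probes of a set share their array and are not replicates. The precision of every value is limited by the number of arrays.

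As a whole, Un lay slightly above the placed chromosomes in both rats. Its mean level was 0.08 in replicate 1 and 0.02 in replicate 2, against -0.01 and -0.10 for the 231247 placed probes. The difference was 0.09 and 0.11, or 0.10 ± 0.02, and it was above 0 in 2 of 2 rats. By limma over all 44 sequence sets it did not pass the threshold, with an adjusted p of 0.387. With a prior spread that follows the number of probes of a set, the adjusted p of the same difference was 0.0129, and over the alternatives it ran from 0.0129 to 0.398. The level of Un against 0 was 0.05 ± 0.04, and -0.02 with normexp background correction.

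Un_random, sequence of the same kind in a second, shorter collection, had levels of -0.02 and -0.05. Its difference from the placed probes was -0.01 in replicate 1 and 0.05 in replicate 2, so the rats differed in sign. The random sets of the autosomes, pooled, had -0.05 and -0.04, which is below the placed probes in replicate 1 and above them in replicate 2.

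**Figure D1:**
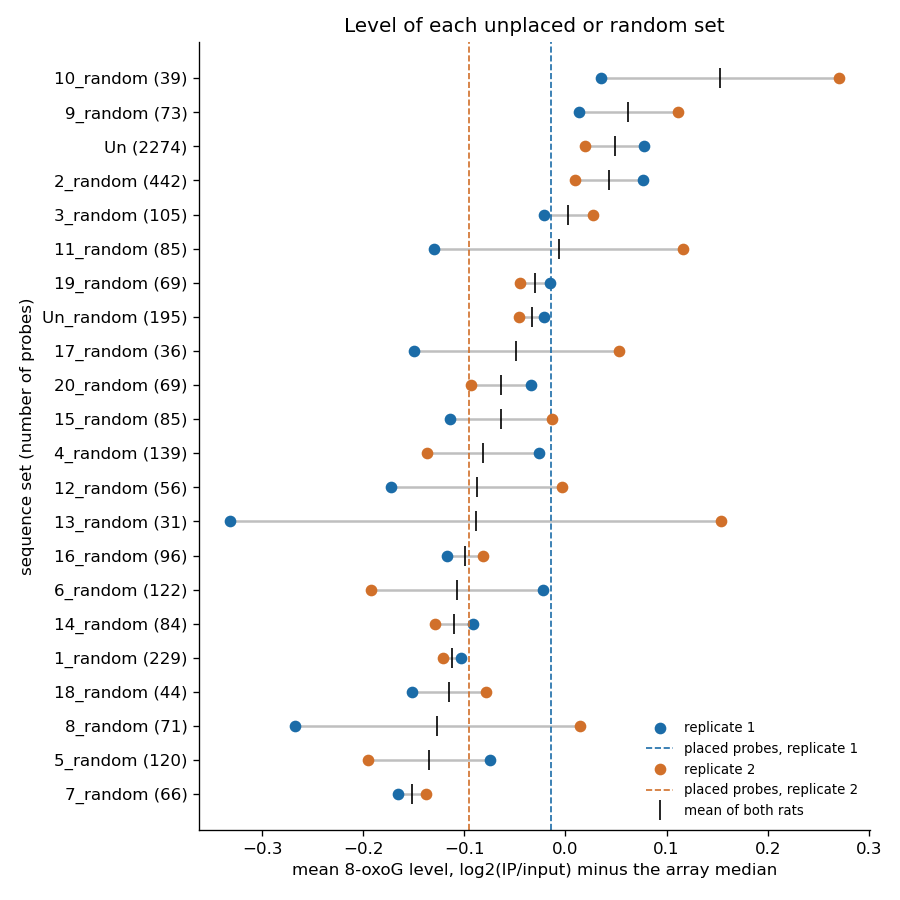
Mean 8-oxoG level (log2 of IP over input minus the array median, x axis) of the 22 unplaced or random sets (y axis, with the number of probes in brackets) in each rat, joined by a grey line, with the mean of both as a black tick. Dashed lines give the mean of the placed probes in each rat. 10_random has the highest mean, 0.15, and 7_random the lowest, -0.15, and 13_random differs most between the rats.

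Among the 20 random sets, 3 were above 0 in both rats, 12 below 0 in both and 5 opposite in sign. The placed probes as a whole were below 0 in both rats too, at -0.01 and -0.10, so the side of 0 alone does not set the random sets apart. Against the placed probes, 4 of the 22 member sets were above in both rats and 6 below in both. The means of the 3 above 0 turned negative with normexp, to -0.06 for 10_random, -0.03 for 2_random and -0.08 for 9_random, and that of 9_random was -0.05 with only probes well above background. Some of the 12 below 0 turned positive in other settings. With only probes well above background 16_random had 0.03 and 18_random 0.02. With the median over probes 5_random had 0.02, 19_random 0.16 and 20_random 0.01. With the trend of the level on brightness taken out, 12_random had 0.02, 15_random 0.03, 19_random 0.07 and 20_random 0.04. The means of the sets ran from -0.15 to 0.15, with an SD between sets of 0.08, and the median SD between the rats within a set was 0.07. The largest set, 2_random with 442 probes, had levels of 0.08 and 0.01. It was above the placed probes in both rats, by 0.09 and 0.10. 1_random, with 229 probes, had levels of -0.10 and -0.12, and its difference from the placed probes was -0.09 and -0.03.

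The other sets with over 100 probes were 4_random with 139, 6_random with 122, 5_random with 120 and 3_random with 105. Their mean levels were -0.08 ± 0.08 for 4_random, -0.11 ± 0.12 for 6_random, -0.13 ± 0.08 for 5_random and 0.0030 ± 0.03 for 3_random. 3 of these 4 were below 0 in both rats, and 3_random was not. Of the sets with 60 to 100 probes, 7_random (66) was lowest at -0.15 ± 0.02 and 9_random (73) highest at 0.06 ± 0.07. Between them lay 16_random (96) at -0.10 ± 0.02, 14_random (84) at -0.11 ± 0.03, 15_random (85) at -0.06 ± 0.07, 11_random (85) at -0.01 ± 0.17, 8_random (71) at -0.13 ± 0.20, 19_random (69) at -0.03 ± 0.02 and 20_random (69) at -0.06 ± 0.04.

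5 sets held fewer than 60 probes. 13_random, with 31 probes, had -0.33 in replicate 1 and 0.15 in replicate 2. 17_random, with 36, had -0.15 and 0.05. 12_random, with 56, had -0.17 and -0.0030, and 18_random, with 44, had -0.15 and -0.08. 10_random, with 39 probes, had 0.04 and 0.27, the highest mean of the 22 sets at 0.15 ± 0.17, though it was -0.06 with normexp and 0.033 with only probes well above background.

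With the main processing no member set passed an adjusted p of 0.05 in limma, neither against 0 nor against the placed probes. Over all 44 sets, 0% passed in either test. Without adjustment, p was under 0.05 for 3 of the 22 member sets against 0 and for 2 against the placed probes, the same shares (13.6% and 9.09%) as over all 44 sets.

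Sequence assigned to a chromosome can be set against that chromosome itself. Chromosome 10 had levels of -0.19 and -0.20, and 10_random lay above it by 0.23 in replicate 1 and 0.47 in replicate 2. This difference, 0.35 ± 0.17, was the largest of the 20 pairs and above 0 in 2 of 2 rats, and its adjusted p in limma was 0.0649. With the median over probes in place of the mean the difference was 0.32, with an adjusted p of 0.0155, and the adjusted p ran up to 0.676 over the alternatives. With normexp the difference was 0.03 and no longer the largest, since that of 19_random was 0.04. With only probes well above background the difference of 10_random was 0.20.

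The random set of chromosome 2 lay close to its chromosome, with differences of -0.01 and 0.03. Of the 20 pairs, 4 random sets were above their chromosome in both rats, 7 below in both and 9 opposite in sign. None of the 20 pairs passed in limma, which is 0% of those tested, and 1 did at an unadjusted p under 0.05. Across the 20 pairs, the level of a random set and that of its chromosome had r = -0.05 in replicate 1 and -0.21 in replicate 2. This is a description over 20 pairs that share the same arrays.

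The plainest property of Un was its input. In both rats a larger share of the probes on Un and Un_random than of the placed probes was very bright in the input DNA. The single brightest placed probes, at 43009 and 98010, were brighter than any on Un, at 24549 and 25724. The median input intensity of Un was 114 and 88.7, against 92.6 and 73.1 for the placed autosomes, a ratio of 1.23 and 1.21. The 95th percentile, however, was 2344 and 1953 on Un, against 529 and 471 on the placed chromosomes. On Un_random it was 4660 and 3810, and on the random sets of the autosomes 535 and 485.

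Chromosome X gives a scale for this, since male rats carry a single copy of it. Its median input intensity was 0.461 and 0.425 of that of the autosomes. X_random, with medians of 49.2 and 36.4, was closer to X, at 42.7 and 31.0, than to the autosomes. The medians of Un, at 114 and 88.7, were not near those of X. Whether a bright probe has more copies of its sequence in the genome or hybridises better cannot be told apart here.

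**Figure D2:**
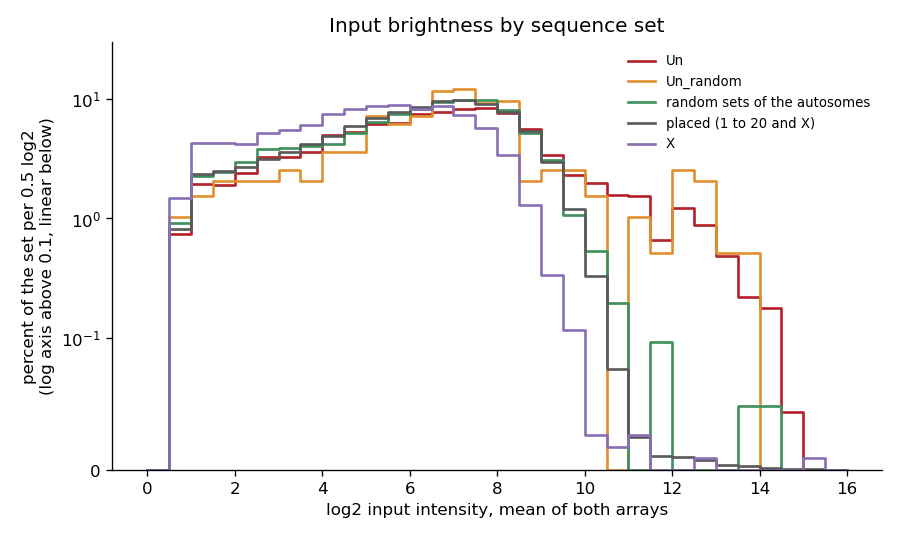
Share of the probes of each set (percent per 0.5 log2, y axis, logarithmic above 0.1 and linear below) by log2 input intensity averaged over both arrays (x axis). The curves of Un and Un_random go on above 10, where those of the placed probes and of the random sets of the autosomes fall away, and the curve of X lies to the left.

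A probe is called bright here if its input exceeds the 99th percentile of the placed probes on each array, an intensity of 880 in replicate 1 and 798 in replicate 2. On Un 213 of 2274 probes were bright (9.37%), and on Un_random 18 of 195 (9.23%). On the random sets of the autosomes 25 of 2061 were (1.21%), with none in 8 of the 20 sets, and on the placed chromosomes 2053 of 231247 (0.888%). With the brightest 0.1% of the placed probes as the mark, 131 Un probes passed it on both arrays (5.76%), 14 of Un_random (7.18%) 6 of the random sets (0.291%) and 204 of the placed chromosomes (0.0882%). The bright share was thus highest on sequence without a chromosome at both marks, and that of the random sets was above the placed one as well.

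Most bright Un probes had no neighbour within 10 kb, since the 213 of them had only 57 such neighbours. Of these 57, 31.6% were bright as well, against 9.37% of all Un probes. In the autosomal random sets it was 12.5% of 16 neighbours, and on the placed chromosomes 1.25% of 2241. A pair of bright neighbours counts here from each of its ends, so the shares of Un and of the random sets rest on few pairs.

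Bright probes of Un and Un_random had higher 8-oxoG levels than bright placed probes in both rats. The 213 bright Un probes had mean levels of -0.05 and -0.15, whereas the 2053 bright placed probes had -0.54 and -0.88. On the random sets of the autosomes the 25 bright probes had -0.43 and -0.47, and on Un_random the 18 bright probes had 0.01 and -0.15. Bright Un probes were above bright placed ones by 0.48 in replicate 1 and 0.74 in replicate 2, or 0.61 ± 0.18, and bright Un_random probes by 0.54 and 0.74. No p is given for this, since bright probes are chosen by the input, which is the denominator of the level, and the mark was set after seeing the data. The trait was not seen on unplaced sequence alone, since the 9 bright probes of X had 0.26 and -0.09 and the 49 of chromosome 12 were above bright placed probes by 0.21 and 0.49. With the brightest 0.1% as the mark the gap between Un and placed probes was smaller, 0.19, since the placed ones then had -0.31.

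Bright members were also more alike between the rats than other members. Over the 213 of them r between the rats was 0.83, and over the 2061 other Un probes it was 0.37, although the bright ones spread less (SD of 0.56 against 0.87). Over the 18 bright Un_random probes r was 0.92 and over the 25 of the autosomal random sets 0.72. Over the bright placed probes r was 0.35, and over the 9 bright probes of X it was 0.85. Of the bright Un probes 68 were above 0 in both rats (31.9%) and 117 below 0 in both (54.9%). Of the bright placed probes it was 8.87% and 71.2%, and of the other Un probes 37.4% and 27.5%. These values describe probes within 2 arrays, and the share of spot intensity in them was not tested.

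**Figure D3:**
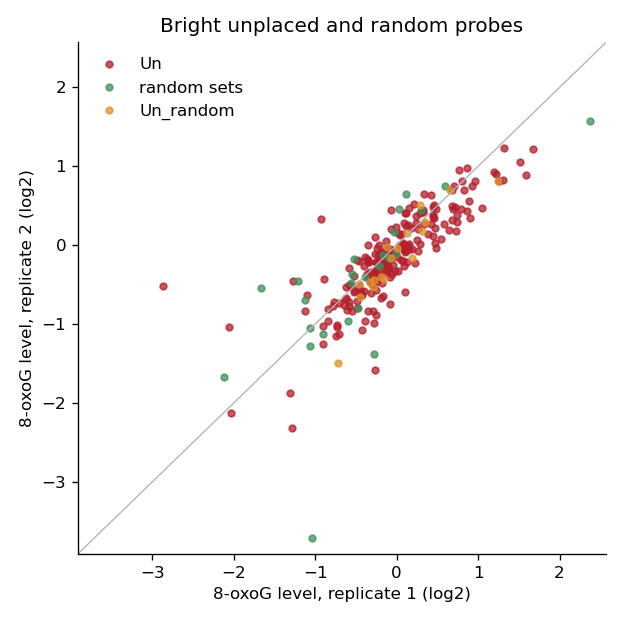
8-oxoG level (log2) of the 256 bright member probes in replicate 1 (x axis) and replicate 2 (y axis), with Un in red, Un_random in orange and the random sets of the autosomes in green. The grey line marks equal levels. The points of Un lie along the line, with r = 0.83, and both rats give the same probes high and low levels.

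Because the input stands in the level as its denominator, levels were also compared among probes of like brightness. In dim probes Un and the placed chromosomes were close. Below an input of 16 Un had 0.22 and 0.29 and the placed probes 0.27 and 0.33, and from 16 to 64 Un had 0.25 and 0.23 against 0.21 and 0.20. From 64 to 256 Un was above by 0.14 and 0.19, and from 256 to 1024 by 0.34 and 0.38. From 1024 to 4096, with 131 Un and 1012 placed probes, Un had -0.00079 and -0.07 and the placed probes -0.53 and -0.87. Above 4096, with 69 and 59 probes, Un was higher by only 0.06 and 0.02. The differences of Un_random from the placed probes changed sign between classes. They were 0.03 and 0.07 below 16 (26 probes), -0.31 and -0.17 from 16 to 64 (40 probes), 0.23 and 0.29 from 64 to 256 (79 probes) and -0.11 and -0.03 from 256 to 1024 (33 probes). In the bright classes they were above 0 as on Un, at 0.83 and 1.07 from 1024 to 4096 (6 probes) and at 0.12 and 0.10 above 4096 (11 probes). The random sets of the autosomes differed from the placed probes by -0.06 and 0.09 from 64 to 256 and by 0.04 and 0.03 from 256 to 1024. From 1024 to 4096 their 17 probes were higher by 0.27 and 0.65, but above 4096 their 2 probes differed by -0.20 and -0.30. In the dim classes their differences were -0.05 and 0.01 below 16, and -0.05 and 0.05 from 16 to 64.

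**Figure D4:**
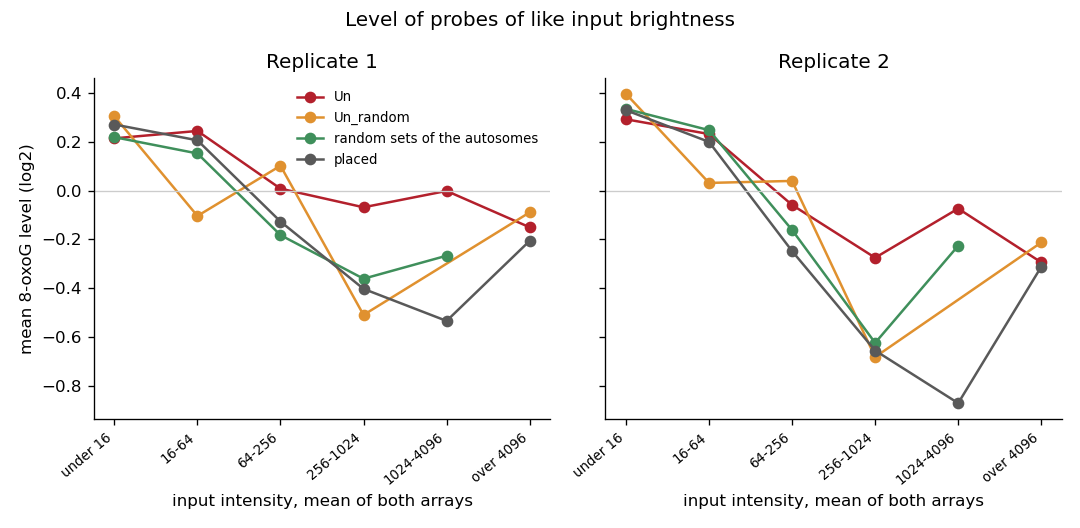
Mean 8-oxoG level (log2, y axis) of probes in classes of input intensity averaged over both arrays (x axis), for Un, Un_random, the random sets of the autosomes and the placed chromosomes in each rat. Classes of fewer than 10 probes are not drawn. Un and placed probes are alike below 64 and above 4096, and between 64 and 4096 Un is higher in both rats, while Un_random lies above the placed probes in some classes and below them in others.

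Without the bright probes Un was above the placed chromosomes by 0.11, which is as much as with them. Taking out the trend of the level on brightness, as fitted on the placed probes, raised it to 0.18. That trend was fitted in classes of 0.5 log2 with at least 200 placed probes. Brighter probes were given the value of the brightest such class, though placed probes above 4096 had -0.21 and -0.31.

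Along its coordinates Un is covered with wide gaps. The median step from a probe to the next was 7870 bases, close to the 7982 of the placed chromosomes. Of 2273 steps, however, 190 (8.36%) were over 100 kb, against 0.236% on the placed chromosomes and 0.980% in the random sets of the autosomes. On Un_random it was 11.9%. Probes of Un lie in 73 fragments of 1 Mb, of which 64 hold at least 5, and the fragment with the most holds 294, or 12.9% of Un. Without that fragment the difference between Un and the placed probes was 0.13. Neighbouring contigs in Un need not be neighbours in the genome, so a fragment here is a stretch of the file's coordinates and not of a chromosome.

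Fragments of Un were called above 0 more often than fragments of the genome at large. By limma over 2838 fragments of 1 Mb, 27 of the 64 Un fragments passed above 0 (42.2%) and 3 below 0 (4.69%), where over all fragments 21.4% passed above and 20.4% below. In 37 Un fragments (57.8%) both rats were above 0, in 15 both were below, and in 12 they differed in sign. Over all 2838 fragments it was 946 (33.3%), 1369 and 523 in the same order. With 5 to 19 probes per fragment 69.7% of Un fragments were above 0 in both rats, against 58.3% of placed ones. With 20 to 49 probes it was 62.5% against 68.5%, and with 50 or more 26.7% against 24.8%. Un_random had 3 of 7 above and 2 below, but none below with normexp, with medians, before dye normalization or with the brightness trend taken out. The share of all fragments below 0 fell in these settings as well, from 20.4% to 4.44%, 8.21%, 16.2% and 6.91% in the same order. The 39 fragments of the autosomal random sets had 0 above and 5 below, and with p under 0.05 before adjustment the number above was 0 as well. In other settings some passed above 0. It was 3 before dye normalization (7.69%) and 2 with the brightness trend taken out (5.13%), against 24.6% and 20.97% of all fragments. Without bright probes it was 2 (5.13%) against 22.2%, and in the table of the authors 1 (2.56%) against 26.6%. In smaller fragments it was 4 of 70 at 500 kb (5.71%) against 16.2%, and 4 of 139 at 200 kb (2.88%) against 7.09%. None of these shares above was tested against that of the placed chromosomes.

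The 27 Un fragments above 0 had a median of 16 probes and held 612 in all, and their levels ran from 0.24 to 0.75. The 34 that were not called had a median of 20, and the 3 below 0 of 52. In fragments of 5 to 19 probes, 16 of 33 Un fragments were above 0 (48.5%), and 9 of 24 placed ones (37.5%). In those of 20 to 49 probes it was 8 of 16 (50%) against 259 of 480 (54.0%), and in those of 50 or more 3 of 15 (20%) against 310 of 2222 (14.0%). Among fragments with like numbers of probes, the share of Un above 0 was thus higher than the placed one in the first and the last class and lower in the middle one, and these differences were not tested. The last class holds 62.7% of Un probes. The autosomal random sets had 0 of 16 above in the class of 20 to 49 probes. Some of these 16 are the last, incomplete fragment of a set and others are not.

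The sparsest fragments of Un were also the brightest. Those of 5 to 19 probes had a median input of 329 and 223, those of 20 to 49 had 85.7 and 63.0, and those of 50 or more 98.4 and 78.1. Over the 64 fragments Spearman's rho between the number of probes and the input was -0.66, and between the number of probes and the level -0.30. Over the 2726 placed fragments rho between the number of probes and the input had the other sign, 0.29, although the 24 placed fragments of 5 to 19 probes were bright too, with medians of 186 and 141. Between the number of probes and the level it was -0.44 over placed fragments, the same sign as on Un. Fragments of an array share its hybridisation, and these values are a description. Their part in the calls was not tested.

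**Figure D5:**
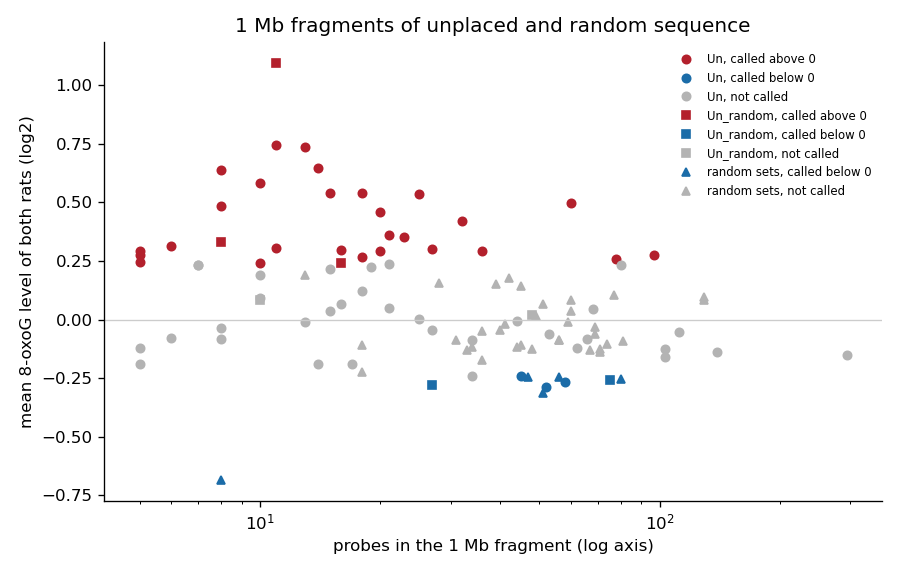
Mean 8-oxoG level of both rats (log2, y axis) of the 110 fragments of 1 Mb on unplaced and random sequence by their number of probes (x axis, logarithmic). Circles are Un, squares Un_random and triangles the autosomal random sets, in red where called above 0, in blue where called below and in grey otherwise. Most of the fragments in red hold under 30 probes, and no triangle is red.

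The count of Un fragments above 0 depended on the processing. With normexp it was 9 of 64 (14.1%), where only 0.599% of all fragments passed above 0. Before dye normalization it was 19 (29.7%) against 24.6% of all fragments, and with the brightness trend taken out it was 40 (62.5%) against 20.97%. Without bright probes it was 29 of 56 (51.8%) against 22.2%. With at least 20 probes per fragment it was 11 of 31 (35.5%) against 21.3%, and in fragments of 200 kb 13 of 114 (11.4%) against 7.09%. Limma gives every 1 Mb fragment the same error, whatever its number of probes, and with a prior spread that follows this number the count was 26 of 64 (40.6%) against 19.5%.

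Over fragments Pearson's r between the rats was 0.73 over the 64 Un fragments, 0.89 over the 7 of Un_random and 0.40 over the 39 of the autosomal random sets, against 0.80 over the placed fragments. Over the 16 autosomal random fragments of 20 to 49 probes it was -0.03.

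The highest fragment with at least 10 probes was Un_random from base 1000001 to 2000000, with 11 probes and levels of 1.12 and 1.07 (mean 1.09 ± 0.04, adjusted p = 5.84e-22 in limma, with the error common to all fragments, and 3.85e-21 with a prior by number of probes). It was followed by Un from 55000001 to 56000000, also with 11 probes, at 0.81 and 0.68, and by Un from 23000001 to 24000000, with 13 probes, at 0.89 and 0.59. None of these 3 lost its call under an alternative in which it was tested. With at least 20 probes per fragment they were left out, and at 500 kb and 200 kb there are no such fragments. Each holds 1 or 2 bright probes.

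The lowest fragment with at least 10 probes was 16_random from 1000001 to 2000000, with 51 probes and levels of -0.33 and -0.30 (mean -0.32 ± 0.03, adjusted p = 0.0101 in limma). Then came Un from 52000001 to 53000000, with 52 probes at -0.41 and -0.16, and Un_random from 6000001 to 7000000, with 27 probes at -0.06 and -0.50. Each of these 3 calls was lost with normexp, at -0.09 for 16_random, -0.07 for Un and -0.09 for Un_random. With a prior by number of probes 16_random kept its call (adjusted p = 0.0394 in limma) and the other two did not. Below the limit of 10 probes, and chosen after its values were seen, lay 5_random from 2000001 to 3000000, with 8 probes at -0.85 and -0.52. Its adjusted p was 1.11e-08 in limma, with the error common to all fragments, which takes no account of its few probes. Un_random thus holds both the highest and one of the lowest named fragments within its 7.

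No single member was called by limma, fitted on all 235872 probes, of which 0% passed. The smallest adjusted p was 0.300. Before adjustment, p was under 0.05 for 334 members above 0 (7.37%) and 244 below (5.39%), against 7.56% and 7.11% of all probes. By a cut without a test, a level beyond 1 on the same side in both rats, 158 Un probes were above (6.95%), against 5.85% of all probes, and 73 below (3.21%), against 4.65% of all. Un_random had 9 above and 7 below, and the autosomal random sets 101 above (4.90%) and 88 below (4.27%).

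The 5 highest members well above background had means over 2.5. The first was chr19_random:839169-839224, with levels of 2.47 and 3.03, from IP intensities of 1429 and 2281 over inputs of 256 and 268. It was followed by chrUn:13228889-13228948 at 2.45 and 2.79, chrUn:12333666-12333725 at 2.36 and 2.86, chr2_random:2873932-2873991 at 2.39 and 2.77, and chrUn:54863514-54863573 at 2.46 and 2.55. The second to the fourth of these had inputs of only 10.8 to 24.3, so small shifts of background weigh on them. The first and the last had inputs of at least 98.1.

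The 5 lowest were alike in another way: their inputs were bright enough to be measured well, from 207 to 453, and the IP intensity of replicate 2 was low, from 11.8 to 28.3. The lowest was chr13_random:368576-368635, with levels of -1.98 and -5.13 from IP intensities of 116 and 11.9. Then came chr4_random:1599751-1599810 at -1.02 and -4.94, chrUn:9654676-9654735 at -1.92 and -3.60, chr1_random:166145-166204 at -1.47 and -3.91, and chrUn:15127529-15127588 at -1.87 and -3.46. All 5 were lower in replicate 2, and the size of their levels rests on it.

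The 3 brightest members in the input lay on Un and on the random set of chromosome 14. chrUn:19972348-19972407 had inputs of 24549 and 25724 and levels of 0.25 and 0.07. chr14_random:1104736-1104795 had inputs of 25244 and 20862 and levels of -0.60 and -0.97, and chrUn:49581953-49582005 had inputs of 21530 and 16950 and levels of -0.29 and -0.47. So even the brightest members were not of one level. The files hold neither the sequences of probes nor gene names.

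Over single probes the rats were about as alike on unplaced as on placed sequence. Pearson's r between them was 0.39 (rho 0.43) over Un, 0.40 (0.46) over Un_random, 0.31 (0.34) over the autosomal random sets and 0.34 (0.36) over the placed probes. With normexp r was 0.68 for Un and 0.60 for the random sets. The level of a neighbouring Un probe within 10 kb, read on the other array, had r = -0.02 over 1325 pairs, against 0.04 on the placed chromosomes and 0.13 over 132 pairs on Un_random.

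The spread over probes was similar too. The SD of the mean of both rats was 0.84 over Un, 0.81 over Un_random, 0.86 over the autosomal random sets and 0.91 over the placed probes. The quartiles of Un were at -0.48 and 0.57. On Un 11.8% of probes lay above 1 and 9.01% below -1, and on the autosomal random sets 9.95% and 11.9%, against 11.4% and 13.0% of the placed probes. Replicate 2 was the wider array, with an SD on Un of 1.12 against 0.90 in replicate 1.

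Signal was sufficient on most members. In both rats, IP and input were both well above background for 81.0% of Un probes, for 85.6% of Un_random and for 77.8% of the autosomal random sets, against 78.2% of the placed probes.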

How the data were processed

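Genomic DNA of 2 rat kidneys was hybridised to 2-colour Agilent Rat Genome CGH arrays, 1 array per rat. The authors deposited scanner files from Agilent Feature Extraction 10.5.1.1, which hold background-subtracted, detrended and lowess dye-normalized intensity per channel, intensity before dye normalization and median intensity of spot and background. Per the file headers they also hold the log10 ratio of red over green and other columns of flags coded 0 or 1. A further table that the authors deposited has log2 values and equals log2 of processed red over green within 6.2e-15. Positions follow the rn4 build named in the headers. The log10 ratio was not used.

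Control spots (5492) and 305 outlier spots were left out, and spots were averaged by probe. Levels were centred on the array median, with no normalization between arrays. Sets of at least 10 probes, differences and 1 Mb fragments of at least 5 probes were tested against 0 with limma 3.58.1 in R 4.3.3 (intercept, eBayes, two-sided, Benjamini-Hochberg, threshold 0.05), always over the whole table, and the code was tested on simulated data. 2 arrays leave 1 degree of freedom per feature, so precision rests on spread pooled over features. Other steps used Python 3.11.15, numpy 2.4.6, pandas 2.3.3, scipy 1.17.1 and matplotlib 3.10.9.

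Named are every unplaced or random set, the 5 highest and 5 lowest members that are well above background with the same sign in both rats, the 3 highest and 3 lowest member fragments (10 probes or more, rats on the same side), and the 3 brightest members in input. The part of this rule on genes could not be applied, since the files give no gene names. Members and lists were chosen with earlier results of these data known. Alternatives were normexp with an offset of 50, probes well above background, outlier spots kept, saturated spots left out, the table of the authors, centring on placed probes, medians, intensity before dye normalization, a brightness trend taken out, other prior spreads, other fragment sizes and minimums, and each rat alone. The written list of these alternatives was stored with 1 character of each alternative per line by an error of writing, and is read by joining the lines. Bright probes, classes of brightness and of probes per fragment, the alternatives that leave out bright probes or the densest Un fragment or weight fragments equally, and the prior by number of probes for fragments were chosen after seeing the data. A limma fit of bright against bright placed probes was also run then, and its p is not used.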

Additional observations from a re-analysis of the deposited data

How the results depend on the processing

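Pairing could not be used with 1 group. Of 202 alternative values of the main results 144 kept their direction and side of the threshold or stayed close, and of 686 of named sets, fragments and probes 547 did, 128 moved, 11 lost a call and 0 changed the sign of a called value. The cause of the changes below was not tested.

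The difference of Un from the placed probes was above 0 in each alternative, from 0.04 with normexp to 0.18 with the brightness trend taken out, and passed the threshold only with a prior by number of probes (0.10). Without replicate 1 or replicate 2 it was 0.11 and 0.09. The level of Un turned to -0.019 with normexp. That of Un_random turned to 0.00 in the authors' table (0.0042) and before dye normalization (0.00036), to 0.028 with medians and to 0.11 with the brightness trend taken out. Its difference from the placed probes turned to -0.018 with probes well above background, and each rat alone gave -0.0067 and 0.050. 10_random against its chromosome passed with medians (0.32) and without bright probes (0.45).

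The number of member sets called, 0, was 1 against 0 in the authors' table (10_random), with a prior by number of probes and without bright probes (10_random). Against the placed probes it was 3 with normexp and 2, among them Un, with a prior by number of probes. The 3 with normexp lay below the placed probes, 15_random by -0.063, 17_random by -0.059 and 7_random by -0.052. Their adjusted p in limma was 0.012, 0.016 and 0.032. With the main processing their differences were -0.0088, 0.0065 and -0.097, and none was called. Against the own chromosome the number called was 1 with medians and without bright probes. The shares of all sequence sets called in these settings are not given, so these counts cannot be set against the placed chromosomes.

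Between the rats, r over Un and over the random sets was 0.68 and 0.60 with normexp, 0.46 and 0.35 with probes well above background, and 0.46 and 0.40 before dye normalization. The SD over probes was 0.34 and 0.27, 0.80 and 0.81, and 0.93 and 0.99 in the same order, and in single rats 0.90 to 1.12 over Un and 0.94 to 1.17 over the random sets.

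Un fragments above and below 0, 27 and 3 of 64, were 9 and 5 of 64 with normexp (all fragments above: 0.599%), 13 and 1 of 114 at 200 kb (all above: 7.09%), 11 above of 31 with at least 20 probes (all above: 21.3%) and 1 below of 64 with medians. Those of Un_random, 3 and 2 of 7, were 2 and 0 with normexp, 1 and 0 with medians, 3 and 0 before dye normalization and with the brightness trend taken out, 2 above with probes well above background, 2 and 1 with a prior by number of probes, 0 above of 3 with at least 20 probes, 3 and 1 of 11 at 500 kb and 1 and 0 of 8 at 200 kb. Autosomal random fragments above and below, 0 and 5, were 1 below with normexp, 3 below with probes well above background, 1 and 3 in the authors' table, 2 below with medians, 3 and 3 before dye normalization, 2 and 2 with the brightness trend taken out, 4 above at 500 kb, 4 and 3 at 200 kb, 2 above without bright probes and 3 below with a prior by number of probes. Of these random fragments there were 39, but 70 at 500 kb and 139 at 200 kb. Of all fragments, 0.599% were above and 4.44% below with normexp. The shares were 22.6% and 16.6% with probes well above background and 26.6% and 18.0% in the authors' table. They were 21.8% and 8.21% with medians, 24.6% and 16.2% before dye normalization and 20.97% and 6.91% with the brightness trend taken out. At 500 kb they were 16.2% and 12.8%, and at 200 kb 7.09% and 3.83%. Without bright probes they were 22.2% and 19.7%, and with a prior by number of probes 19.5% and 26.2%.

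Bright Un and placed probes had -0.21 and -0.98 before dye normalization and 0.61 and 0.024 with the brightness trend taken out, and with the brightest 0.1% as the mark the placed ones had -0.31 against -0.12 for Un. The trend was held constant for the brightest probes and was not fitted on them.

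With 2 arrays and no dye swap, small differences between sets are not resolved, and the level of dim probes rests on the background correction.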
